A study of Mus musculus with 16 samples.

Results

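The annexin family was followed across RNA sequencing libraries of murine tracheal epithelial cell cultures (MTECs). It was taken as 10 genes named by symbol, Anxa1 to Anxa8, Anxa10 and Anxa11, out of 49315 Ensembl gene identifiers, and all 10 were among the 15993 genes that passed the filter on low counts. The family was chosen by the fall of Anxa10 in female WT HDM libraries, seen on TMM-scaled counts of all 16 libraries. Every comparison that uses the female WT HDM libraries is therefore given below as a description with no test. MTECs are primary cells grown at an air-liquid interface, where they form a pseudostratified airway epithelium. The cultures came from male or female mice on a C57BL/6J background, WT or labelled KO for LMAN1, a mannose-binding lectin that recognizes house dust mite (HDM). The age of the mice is not given in the sources used here. Cultures were left naive, or were treated overnight with 20 µg/ml of extract of HDM, a common source of inhaled allergen. Sex, genotype and treatment gave 8 groups of 2 biological replicates, 16 libraries in all. The groups were male WT naive, male WT HDM, male KO naive, male KO HDM, female WT naive, female WT HDM, female KO naive and female KO HDM. Tracheas were pooled for the cultures, and the inserts were coated with matrix laid down by a fibroblast line.

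Libraries held 21860698 to 43442188 counts on genes. Levels below are counts at a library size made common by TMM factors (CPM), a measure of one gene across libraries, and they are divided by exon length only where genes are compared with each other. Lman1, the targeted gene, was at 101 to 144 CPM in the WT libraries. Among naive libraries labelled KO it was at 12.8 and 12.8 CPM in females and at 14.2 and 63.4 CPM in males. In HDM libraries labelled KO it was at 66.6 and 78.1 CPM in females and at 65.0 and 66.0 CPM in males. Thus 5 of the 8 libraries labelled KO held 52.6% to 64.8% of the WT mean, which goes against their label, and "labelled KO" is used for all of them. HDM and this difference in Lman1 cannot be told apart in the female cultures labelled KO. Summed basal markers, among them the keratins Krt5 and Krt14, were at 2002 CPM or more in every library. The endothelial genes Cdh5, Pecam1 and Kdr reached at most 4, 11 and 50 counts in a library, and the lymphocyte genes Cd3e and Cd79a at most 1 and 4. Of the other leukocyte genes, Ptprc reached 207 counts, and the macrophage genes Cd68 and Adgre1 reached 1089 and 1076. Of the club genes, Scgb1a1, the classical secretoglobin, and Bpifb1 reached at most 167 and 135 counts, while Cyp2f2, Scgb3a1, Scgb3a2 and Bpifa1 reached 672159, 23372, 13067 and 7710.

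Annexins are cytosolic proteins that bind acidic phospholipids when calcium rises, through a core of repeated domains that members share. They take part in membrane repair, vesicle traffic and the organization of lipid domains, and in leukocyte biology annexin A1 is known as a mediator of resolution through formyl peptide receptors. Annexin A2 forms a complex with the S100 protein p11, encoded by S100a10, annexin A5 is the standard probe for phosphatidylserine exposed on dying cells, and annexin A10 is best known as a gene of the gastric mucosa.

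The sequence before the start of Anxa10 is shown first, because this member had the largest change. Promoter windows from RefSeq (GRCm38.p6), 250 bases before to 50 bases after a start, were found for 8 of the 10 members and not for Anxa3 and Anxa6. They were searched on both strands for TGANTCA, the AP-1 consensus, which reads the same on either strand and was counted once, and for TGTTTAC, a forkhead consensus. TGANTCA was in 7.81% of all 32851 windows and TGTTTAC in 3.65%. Anxa10 (ENSMUSG00000031635) is a protein-coding gene that GENCODE places at chr8:62057042-62123150 of GRCm38, minus strand. The 250 bases before its RefSeq start, chr8:62123194-62123443 on the minus strand, read as follows with the motif in capitals.
Anxa10: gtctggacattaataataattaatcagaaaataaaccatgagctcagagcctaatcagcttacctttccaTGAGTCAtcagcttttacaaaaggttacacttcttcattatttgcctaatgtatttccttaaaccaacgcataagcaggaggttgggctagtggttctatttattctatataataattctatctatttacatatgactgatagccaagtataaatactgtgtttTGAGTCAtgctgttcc
TGANTCA stood at 2 places, which began 180 and 16 bases before the start, and 0.46% of all windows held it 2 times or more. Of the other members with a window, Anxa2 held it once, 95 bases before its start, and Anxa8 held TGTTTAC once, 196 bases before its start. The stretches around them are chr9:69453573-69453609 on the plus strand and chr14:34085768-34085804 on the plus strand.
Anxa2: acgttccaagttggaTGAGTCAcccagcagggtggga
Anxa8: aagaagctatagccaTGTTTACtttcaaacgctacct
No match to either motif was found in the windows of Anxa1, Anxa4, Anxa5, Anxa7 and Anxa11. These matches are descriptions of the letters and not evidence of binding.

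In naive MTECs the family was led by Anxa1 on the scale of CPM per kilobase of exon. The median over the 8 naive libraries was 1487 CPM per kilobase for Anxa1, with a range of 1147 to 1822. Anxa2 followed at a median of 276.6 CPM per kilobase (range 221 to 341), and Anxa8, an annexin of stratified epithelia, at 266 (range 212 to 298). Those ranges overlapped, so the order of Anxa2 and Anxa8 was not separated by the libraries. Anxa5, at a median of 157 CPM per kilobase (range 148 to 209.8), and Anxa3, at 152 (range 141 to 170.3), overlapped as well. Anxa6, an annexin with a doubled core that organizes membrane and cytoskeleton, had a median of 56.2 CPM per kilobase. Anxa4 and Anxa7, which act in membrane and granule traffic, lay close together at 35.5 and 34.1 CPM per kilobase with overlapping ranges. Anxa11, which links RNA granules to lysosomes, had 18.4 CPM per kilobase and Anxa10 had 4.94. Of the annexins outside the list, Anxa9 had a median of 0.317 CPM per kilobase and Anxa13 had 0.102. Anxa9 lies over Mindy1 on the other strand, which held 884 to 3630 counts against 15 to 38 for Anxa9. Whether counting used strand is not given in the sources used here, so reads of Anxa9 and Mindy1 cannot be told apart.

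**Figure D1:**
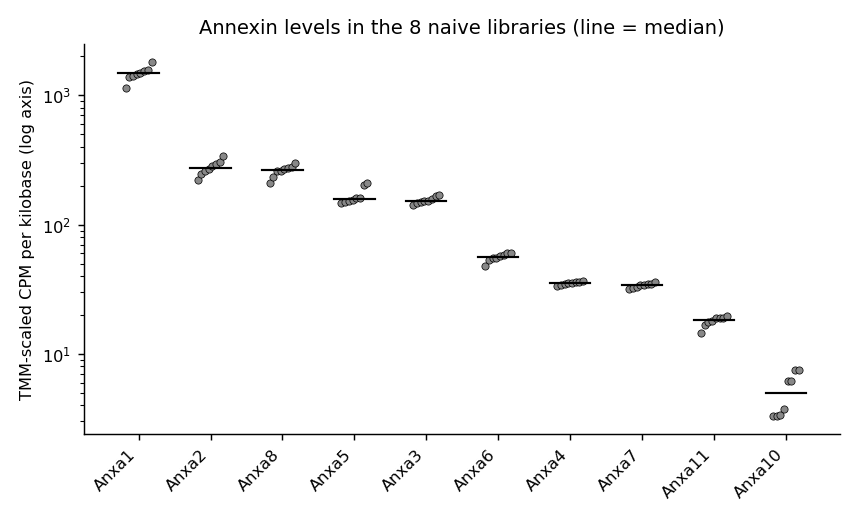
Levels of the 10 annexins in the 8 naive libraries, in TMM-scaled CPM per kilobase of exon on a log axis, with a point for each library and a line at the median. Anxa1 at a median of 1487 stands above all others, and Anxa10 at 4.94 is the lowest.

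Anxa10 was the member whose level differed most between groups. In female WT naive MTECs it was at 14.1 and 17.3 CPM, and in female WT HDM MTECs at 0.167 and 0.189 CPM, which were 4 counts in each library against 389 and 771. The fitted log2 fold change was -6.44 (standard error, SE, 0.38), or 86.8-fold lower with HDM. In female naive MTECs labelled KO Anxa10 was at 17.2 and 14.2 CPM, and in the HDM cultures at 5.57 and 2.72 CPM. There it fell by 1.92 on the log2 scale (SE 0.25, adjusted p = 0.0012 by the quasi-likelihood test in edgeR after Benjamini-Hochberg adjustment), which is 3.79-fold. In both female settings the HDM libraries lay below the naive ones with no overlap. The log2 fold change was -1.49 without HDM replicate 2 and -2.53 without HDM replicate 1. Both of those values passed the same test.

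In males Anxa10 did not pass the test for HDM. Male WT naive MTECs were at 7.66 and 8.51 CPM and male WT HDM MTECs at 6.33 and 5.56 CPM, a log2 fold change of -0.44 (SE 0.25, adjusted p = 0.94 by edgeR). Male MTECs labelled KO were at 7.52 and 7.57 CPM when naive and at 8.52 and 8.36 CPM with HDM, a log2 fold change of 0.16 (SE 0.24, adjusted p = 0.89 by edgeR). Among cultures labelled KO the HDM response of Anxa10 was lower in females than in males by a tested interaction, with a log2 difference of -2.09 (SE 0.35, adjusted p = 0.012 by edgeR). The interaction was not called without female KO naive replicate 1 (-1.94, adjusted p = 0.072) or without male KO HDM replicate 2 (-2.10, adjusted p = 0.062). The matching interaction in WT uses the libraries by which Anxa10 was chosen and was not tested.

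Before treatment Anxa10 was higher in every female library than in every male library. The 4 naive female libraries had 15.7 ± 1.8 CPM (SD, n = 4; range 14.1 to 17.3) and the 4 naive male libraries 7.81 ± 0.47 CPM (SD, n = 4; range 7.52 to 8.51). Male minus female, the log2 fold change was -0.96 (SE 0.24) in WT and -1.05 (SE 0.24) in cultures labelled KO. Neither passed edgeR's test over all genes (adjusted p = 0.19 and 0.14), while DESeq2 called both (adjusted p = 0.024 and 0.0097). The female WT naive libraries in the WT contrast also entered the fold by which Anxa10 was chosen, whereas the contrast in cultures labelled KO holds none of them. In HDM cultures labelled KO the order was turned, with male libraries above female ones by 1.03 on the log2 scale (SE 0.25, adjusted p = 0.012 by edgeR). The call was lost without male KO HDM replicate 1 (adjusted p = 0.058) or 2 (adjusted p = 0.060), and without female KO HDM replicate 2, the lowest of the 4 libraries, the value was 0.60 (adjusted p = 0.059).

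**Figure D2:**
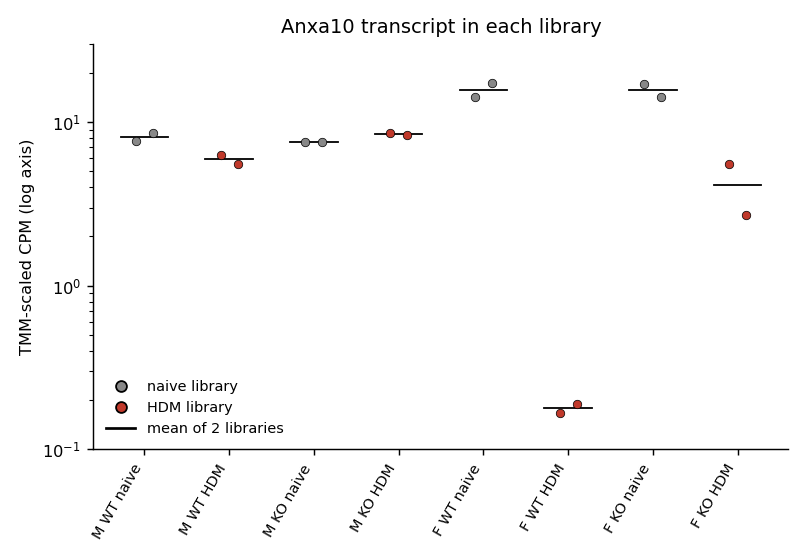
Anxa10 in TMM-scaled CPM on a log axis for each of the 16 libraries by group, with a line at the mean of 2 replicates. Female naive libraries lie between 14.1 and 17.3, female WT HDM libraries at 0.167 and 0.189, female KO HDM libraries at 5.57 and 2.72, and all 8 male libraries between 5.56 and 8.52.

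In female WT MTECs, HDM libraries and naive libraries did not overlap for any of the 10 annexins, with 6 higher and 4 lower. The same held for 74.6% of all tested genes there. A log2 fold change of at least 1 in size was met by 4 members, 2 in each direction, and by 21.4% of all genes. These values used the libraries of the rule, so nothing is read from the counts. The median log2 fold change of the members was 0.15, against -0.02 over all tested genes.

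Anxa5 and Anxa6 had the highest rises on the fold scale. Anxa5 (chromosome 3, 36448923 to 36475894, minus strand) was at 262 and 275 CPM in female WT naive MTECs and at 782 and 840 CPM with HDM, a log2 fold change of 1.60 (SE 0.19). Anxa6 (chromosome 11, 54979108 to 55033445, minus strand) was at 157 and 177 CPM in naive and at 436 and 497 CPM in HDM libraries, a log2 fold change of 1.48 (SE 0.13). In each of these genes the HDM libraries were the highest of the 16.

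Anxa3, which promotes vesicle fusion and is abundant in neutrophils, and Anxa1 had smaller rises. Anxa3 (chromosome 5, 96793339 to 96845966, plus strand) was at 558 and 551 CPM in female WT naive and at 968 and 976 CPM in HDM libraries, a log2 fold change of 0.81 (SE 0.10). Anxa1 (chromosome 19, 20373428 to 20390944, minus strand) was at 4077 and 4070 CPM and then at 5867 and 5653 CPM, a log2 fold change of 0.50 (SE 0.17). Anxa2 (chromosome 9, 69453620 to 69491795, plus strand) was at 924 and 1058 CPM in naive and at 1188 and 1101 CPM in HDM libraries, a log2 fold change of 0.21 (SE 0.18). For Anxa2 the gap between the groups was smaller than the spread of the naive replicates.

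Anxa8 and Anxa11, on the same chromosome as Anxa7, were lower with HDM. Anxa8 (chromosome 14, 34085981 to 34100571, plus strand) was at 439.7 and 529.5 CPM in female WT naive and at 233 and 189.8 CPM in HDM libraries, a log2 fold change of -1.20 (SE 0.15). Anxa11 (chromosome 14, 25842156 to 25886804, plus strand) was at 74.3 and 69.2 CPM and then at 52.4 and 44.1 CPM, a log2 fold change of -0.57 (SE 0.15). Anxa7 and Anxa4 moved least, with log2 fold changes of -0.14 and 0.10. Over all 16 libraries Anxa4 stayed between 149 and 179 CPM and Anxa7 between 178 and 216 CPM. The sum of the 10 annexins was 6867 and 7102 CPM in female WT naive libraries and 9872 and 9659 CPM in female WT HDM libraries, of which Anxa1 made up most.

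**Figure D3:**
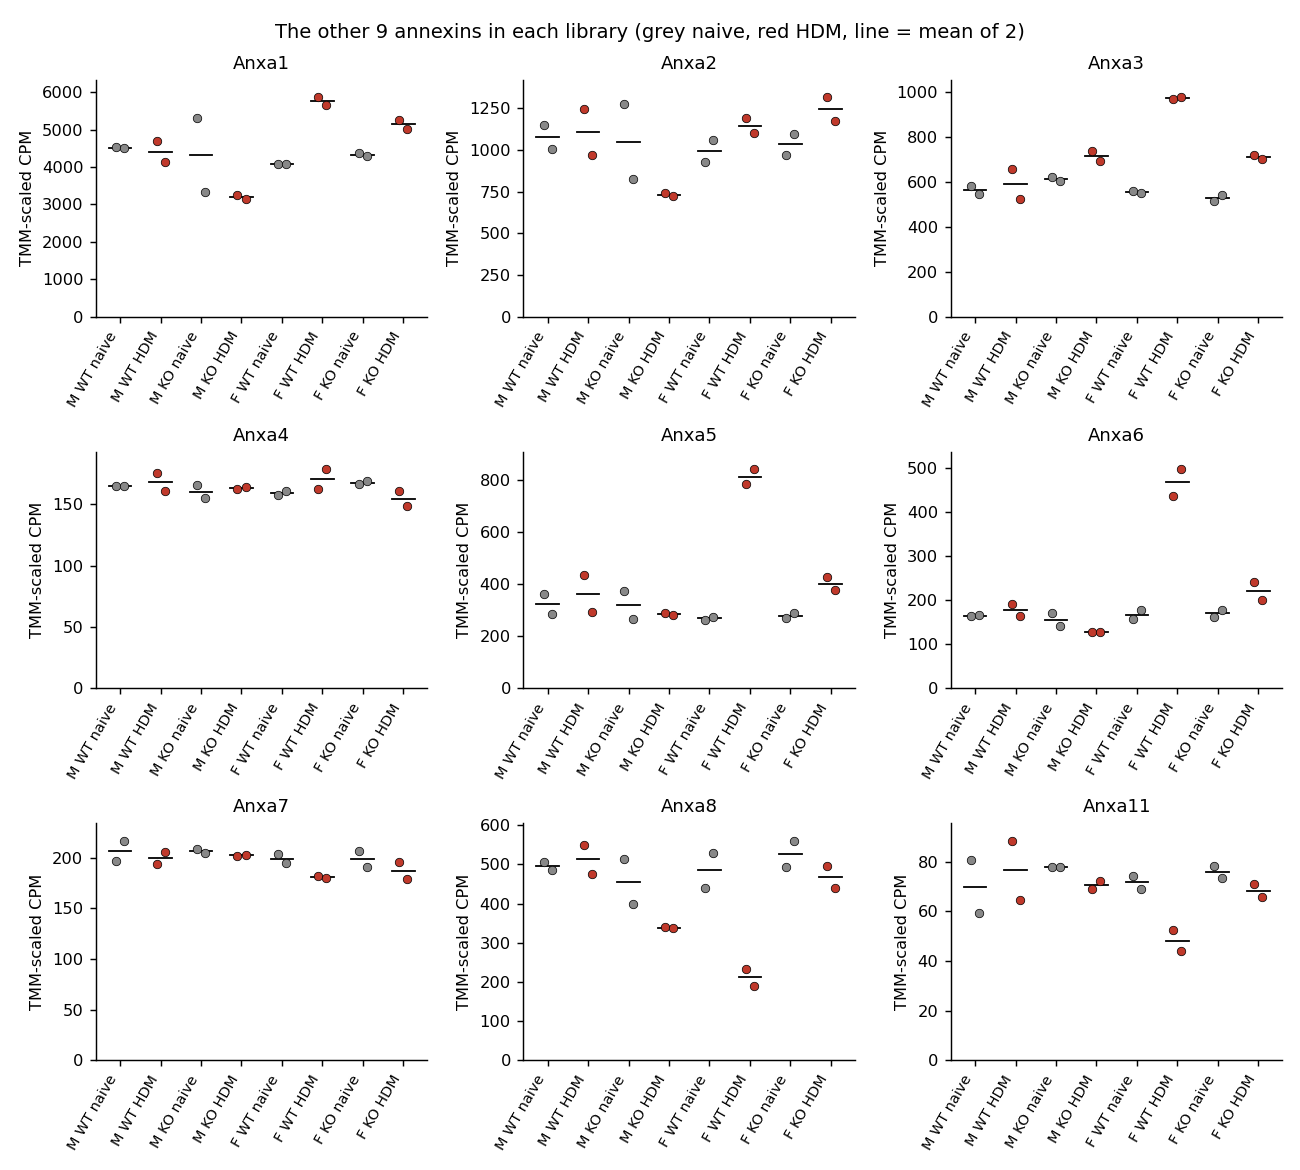
The 9 members other than Anxa10 in TMM-scaled CPM for each library by group, on axes that start at 0, with naive libraries in grey, HDM libraries in red and a line at the mean of 2. Anxa5 and Anxa6 peak in female WT HDM libraries at 782 to 840 and 436 to 497, Anxa8 is lowest there at 233 and 189.8, and Anxa4 and Anxa7 are nearly flat.

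Female cultures labelled KO gave an HDM comparison that holds no female WT HDM library. All 16 libraries were in view when the family was chosen, so it is not independent of that choice. HDM and the level of Lman1 cannot be told apart in these cultures. There 2 of the 10 members were called, Anxa3 upward and Anxa10 downward, against 10.4% of all genes. Anxa3 was at 514 and 539 CPM in naive and at 719.8 and 701 CPM in HDM libraries, a log2 fold change of 0.43 (SE 0.10, adjusted p = 0.016 by edgeR). Leaving out any 1 of these 4 libraries took Anxa3 out of the called genes, with adjusted p from 0.064 to 0.14 and log2 fold changes from 0.40 to 0.47. Anxa5 was at 269 and 287 CPM in naive and at 425 and 376 CPM in HDM libraries, and its log2 fold change of 0.53 (SE 0.19) did not pass edgeR's test (adjusted p = 0.10). Anxa6 was at 162 and 178 CPM and then at 242 and 199 CPM, with a log2 fold change of 0.38 (SE 0.12, adjusted p = 0.078 by edgeR). DESeq2 called both, as did edgeR on the 4 compared libraries alone.

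The remaining members did not pass in female cultures labelled KO. Anxa1 had 4365 and 4292 CPM in naive and 5252 and 5030 CPM in HDM libraries (log2 fold change 0.25, adjusted p = 0.40 by edgeR). Anxa8 had 493 and 560.2 CPM in naive and 497 and 440 CPM in HDM libraries, which overlapped (log2 fold change -0.17, adjusted p = 0.52 by edgeR). The libraries of the groups were apart for 8 members, all but Anxa7 and Anxa8, and for 60.4% of all genes. The median log2 fold change of the members was 0.08, against -0.005 over all genes. The HDM response in female WT and in female cultures labelled KO has a library of the rule on one side, so the difference between them is given by values alone. The HDM libraries labelled KO differed from the WT ones by log2 fold changes of -1.02 for Anxa5, -1.08 for Anxa6, 4.51 for Anxa10 and 1.15 for Anxa8. Male over female WT HDM libraries, likewise with no test, the log2 fold changes were 5.04 for Anxa10, 1.28 for Anxa8, -1.40 for Anxa6, -1.16 for Anxa5 and -0.72 for Anxa3.

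**Figure D4:**
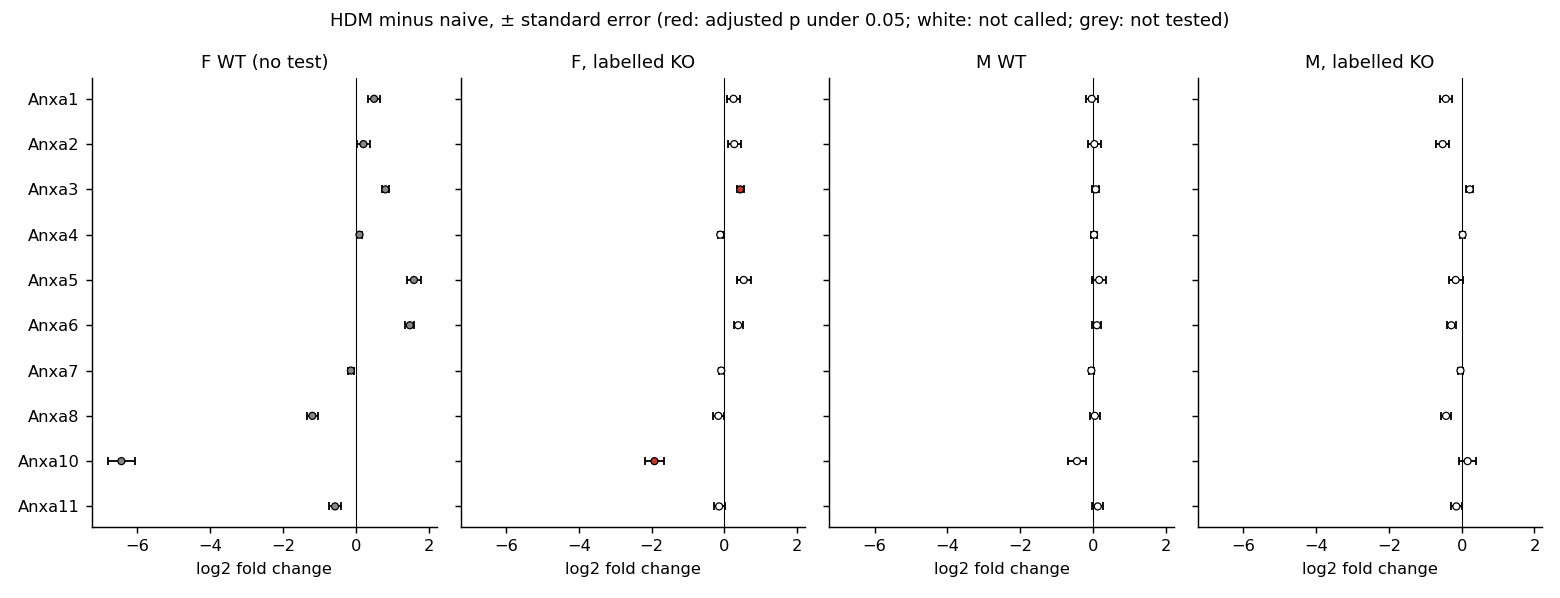
Log2 fold change of HDM over naive for the 10 annexins in female and male MTECs, WT or labelled KO, with bars of ± 1 standard error from the fit of 16 libraries. Anxa10 reaches -6.44 in female WT (grey, no test) and -1.92 in female cultures labelled KO (red, called with Anxa3 at 0.43), and no male value was called (white).

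In male MTECs no annexin was called for HDM, and neither was any other gene. In male WT cultures the called share was 0 of 15993 genes, 0 members had an unadjusted p under 0.05 and DESeq2 called 0. The libraries of the groups were apart for 1 member, Anxa10, and for 29.6% of all genes. In male cultures labelled KO the called share was again 0 of all genes, DESeq2 called 0 members and 5 members had an unadjusted p under 0.05. The share of all genes under that unadjusted threshold is not given here, so the 5 are not read as a result about annexins. Groups were apart there for 8 members, 2 higher and 6 lower, and for 38.5% of all genes. Anxa2 went from 1273 and 825 CPM to 740 and 722 CPM (log2 fold change -0.52, SE 0.18, adjusted p = 0.78 by edgeR). Anxa1 went from 5304 and 3338 CPM to 3243 and 3141 CPM (log2 fold change -0.44, SE 0.17, adjusted p = 0.78 by edgeR). In both genes male KO naive replicate 1 was high, and replicate 2 lay near the HDM libraries. Lman1 differed between those replicates too, at 14.2 and 63.4 CPM, and its part in the spread was not tested.

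Sex differences among HDM cultures labelled KO reached 5 of the 10 members. Of these, 4 were lower and 1 was higher in males, against 25.3% of all genes called in that comparison. Anxa6 was at 127 and 128 CPM in males against 242 and 199 CPM in females, a log2 fold change of -0.79 (SE 0.12, adjusted p = 0.0011 by edgeR). Anxa2 was at 740 and 722 CPM against 1315 and 1175 CPM, a log2 fold change of -0.77 (SE 0.18, adjusted p = 0.011 by edgeR). Anxa1 was at 3243 and 3141 CPM against 5252 and 5030 CPM, a log2 fold change of -0.69 (SE 0.17, adjusted p = 0.013 by edgeR). Anxa8 was at 339 and 338 CPM against 497 and 440 CPM, a log2 fold change of -0.47 (SE 0.15, adjusted p = 0.035 by edgeR). Anxa10 was the member that was higher in males. Anxa5 was lower in both male libraries, at 288 and 279.7 CPM against 425 and 376 CPM, without passing edgeR's test (log2 fold change -0.50, adjusted p = 0.077).

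These calls rest on few libraries. With each of the 4 left out in turn, 1 to 3 members were called, and Anxa6 was called each time. The median log2 fold change of the members was -0.23, against -0.003 over all genes. Markers of other epithelial states differed in the same comparison. Of the goblet genes tested, 4 of 4 were called higher in males, club genes were called higher for 5 of 6, and squamous genes were called lower for 5 of 6. Summed goblet markers were at 145 and 203 CPM in males and at 12.3 and 13.1 CPM in females. Summed squamous markers were at 272 and 269 CPM in males and at 1513 and 1170 CPM in females. Their part in the annexin differences was not tested, and in bulk cultures fewer cells of a type cannot be told apart from less RNA per cell.

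In naive cultures no annexin was called between the sexes, in WT (0.100% of all genes called) or in those labelled KO (0.188%). DESeq2 called 1 member in each, Anxa10, and the members with an unadjusted p under 0.05 numbered 1 and 2. The shares of all genes by these criteria are not given here. Beyond Anxa10 the naive log2 fold changes of male over female lay between -0.21 and 0.27. For the interaction of sex and HDM among cultures labelled KO, 1 member was called, Anxa10, against 3.56% of all genes. The same interaction was 0.66 for Anxa6 (SE 0.17, adjusted p = 0.061 by edgeR), 0.79 for Anxa2 (SE 0.26, adjusted p = 0.12) and 0.69 for Anxa1 (SE 0.24, adjusted p = 0.15). Over the alternatives, which include each library left out, it ranged from 0.50 to 0.79 for Anxa6. The range was 0.445 to 1.07 for Anxa2 and 0.315 to 0.98 for Anxa1.

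Genotype made no difference that passed the test in any comparison free of female WT HDM libraries, in which 0 of 15993 genes were called. Lman1 itself was not called in naive females. It was at 12.8 and 12.8 CPM in those labelled KO and at 123.2 and 122.7 CPM in WT. In males, naive replicate 2 and both HDM libraries labelled KO held Lman1 at 52.6% to 54.8% of the WT mean. These zeros therefore cannot show that genotype left the annexins unchanged. In naive MTECs 0 members had an unadjusted p under 0.05 in females and 0 in males, and DESeq2 called 0 in each. Anxa10 was at 15.7 CPM on average in both female naive groups (log2 fold change -0.01, SE 0.24, adjusted p = 1.00 by edgeR). In male HDM cultures 5 members had an unadjusted p under 0.05 and DESeq2 called 3. Anxa8 was at 339 and 338 CPM in those labelled KO and at 550.5 and 476 CPM in WT, a log2 fold change of -0.60 (SE 0.15, adjusted p = 0.16 by edgeR). For the interaction of genotype and HDM in males, 2 members had an unadjusted p under 0.05 and DESeq2 called 0. Shares of all genes by unadjusted p and by DESeq2 are not given here, so nothing is read from these counts.

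Annexin partners were taken as 28 genes, of which 25 were tested, with Fpr3, Trim72 and Plg below the filter. They cover the S100 proteins and other calcium sensors that bind annexins, the formyl peptide receptors and cytosolic phospholipase, glucocorticoid signaling, plasminogen, membrane repair and the enzymes that move phosphatidylserine across the membrane. For HDM in female cultures labelled KO, 3 partners were called higher and 1 lower, with a median log2 fold change of 0.03 over the 25, and 10.4% of all genes were called. Between the sexes in HDM cultures labelled KO, 3 were called higher and 6 lower in males, against 25.3% of all genes called. For the interaction of sex and HDM, 2 were called in the positive and 1 in the negative direction, against 3.56% of all genes. None of them was called in the HDM, genotype or interaction comparisons of males, in naive females for genotype or between the sexes in naive cultures of either genotype. In those comparisons 0 to 8 partners had an unadjusted p under 0.05. DESeq2 called 3 in male HDM cultures for genotype and 1 in naive WT cultures for sex. With no share of all genes given here by these criteria, nothing is read from those counts.

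S100a10, the obligate partner of annexin A2 in its tetramer, had the largest log2 fold change with HDM among the 4 partners called in female cultures labelled KO. In female cultures labelled KO it was at 124 and 155 CPM when naive and at 308 and 272 CPM with HDM, a log2 fold change of 1.06 (SE 0.19, adjusted p = 0.0054 by edgeR). Without naive replicate 1 it was 0.91 and not called (adjusted p = 0.077). In female WT MTECs it was at 128 and 163 CPM and at 411 and 420.5 CPM. Male libraries held 120 to 185 CPM in either state, and the interaction of sex and HDM in cultures labelled KO was 1.29 (SE 0.27, adjusted p = 0.025 by edgeR). That interaction was lost in 6 of its 8 leave-one-out fits, with adjusted p up to 0.14. Its ratio to Anxa2 on the scale of CPM per kilobase was 0.426 and 0.475 in female WT naive libraries and 1.06 and 1.18 with HDM. In female libraries labelled KO this ratio was 0.393 and 0.434 in naive and 0.722 and 0.712 in HDM cultures. Thus S100a10 moved more than Anxa2 did in both female settings.

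Ano6 encodes a calcium-activated scramblase that exposes phosphatidylserine, the lipid bound by annexin A5. It was at 111 and 116 CPM in female naive cultures labelled KO and at 161 and 186 CPM with HDM, a log2 fold change of 0.61 (SE 0.08, adjusted p = 0.0014 by edgeR). Plscr1, an interferon-inducible protein first described as a scramblase, went the other way, from 183 and 153 CPM to 101 and 102 CPM (log2 fold change -0.73, SE 0.11, adjusted p = 0.0027 by edgeR). Ahnak, a giant scaffold that binds S100a10 and annexin A2, was at 990.2 and 992 CPM and then at 1339 and 1715 CPM (log2 fold change 0.62, SE 0.16, adjusted p = 0.031 by edgeR). For Ahnak the call was lost without HDM replicate 2 (log2 fold change 0.43, adjusted p = 0.26) and without either naive replicate. Ano6 and Plscr1 kept their calls in every leave-one-out fit. In female WT MTECs Ano6 was at 112 and 116 CPM in naive and at 243 and 229 CPM in HDM libraries, and Plscr1 at 188 and 160.4 CPM and then at 94.3 and 109 CPM.

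Of the 9 partners called by sex in HDM cultures labelled KO, where 25.3% of all genes were called, Plscr1 was at 236 and 249.8 CPM in males (log2 fold change 1.26, SE 0.11, adjusted p = 5.3e-05 by edgeR), and S100a10 at 128 and 127 CPM (log2 fold change -1.19, adjusted p = 0.0011). S100a6, a small calcium sensor, was at 338 and 339 CPM in males against 833 and 670.4 CPM in females (log2 fold change -1.15, SE 0.26, adjusted p = 0.0076 by edgeR). Ahnak (-0.80), Ano6 (-0.59) and the calpains Capn1 (-0.35) and Capn2 (-0.28), proteases of membrane repair, were called lower in males on the log2 scale. Plat, the tissue plasminogen activator, was called higher (0.51). S100a6, Plat, Capn1 and Capn2 each lost the call with 3 or 4 of the 4 libraries left out in turn.

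The receptors of annexin A1 were close to the floor of 3 counts. Fpr1 had 0 to 20 counts and Fpr2 had 1 to 24 counts per library.

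**Figure D5:**
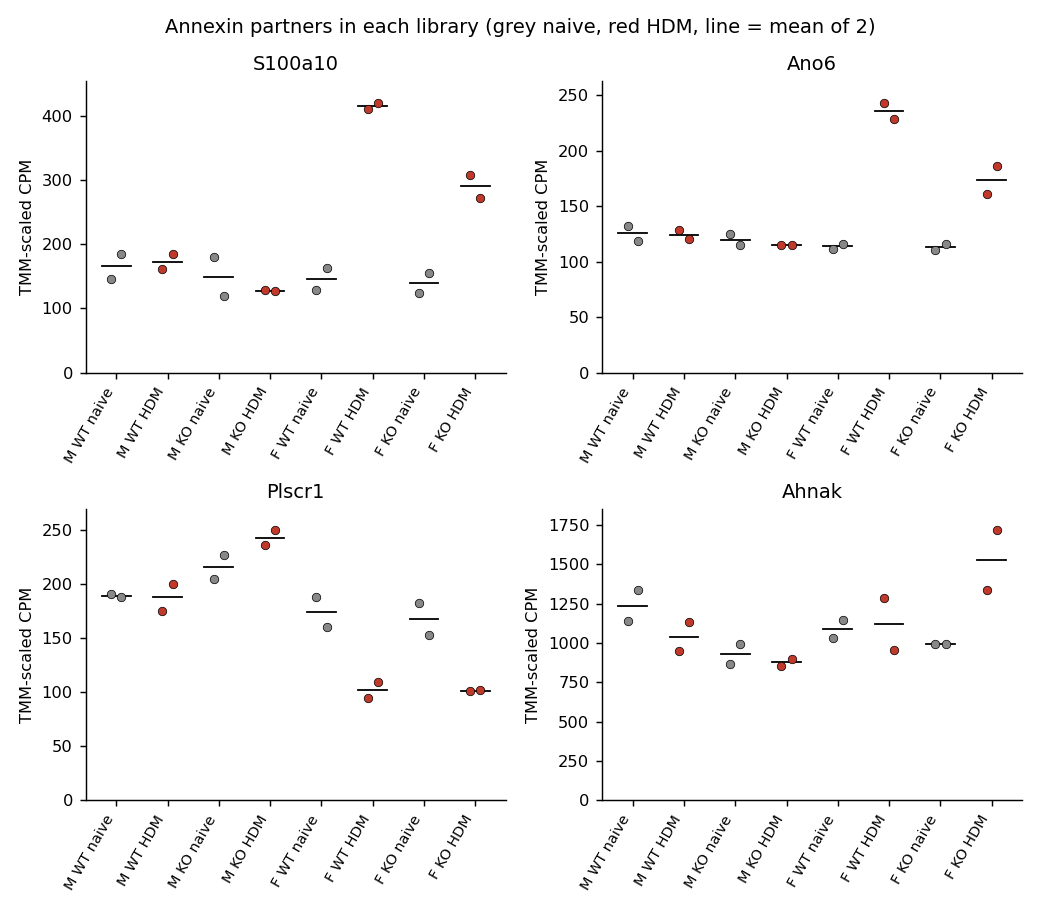
S100a10, Ano6, Plscr1 and Ahnak in TMM-scaled CPM for each library by group, on axes that start at 0, with naive libraries in grey, HDM libraries in red and a line at the mean of 2. Male libraries of S100a10 lie between 120 and 185 while female HDM libraries lie between 272 and 420.5, and Plscr1 is lowest in the 4 female HDM libraries at 94.3 to 109.

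Genes whose levels followed Anxa10 across the 16 libraries were ranked as a description, over 13008 genes on log2(CPM + 1). The highest Pearson correlations were with Ces1g (0.98), a carboxylesterase, Akr1c18 (0.97), a steroid-metabolizing aldo-keto reductase, Dnajc7 (0.97), a co-chaperone, Bmx (0.97), a Tec family kinase, and Tpcn2 (0.97), a lysosomal cation channel. The points share libraries and groups, and the female WT HDM libraries were low for all 5. Akr1c18 was at 97.6 and 103 CPM in female WT naive and at 3.50 and 5.87 CPM in HDM libraries. Among the annexins, the highest correlation was between Anxa5 and Anxa6 (Pearson 0.94 over 16 libraries) and the next between Anxa1 and Anxa2 (0.90). Anxa10 had its lowest values with Anxa5 (-0.92) and Anxa3 (-0.88), and its highest with Anxa8 (0.79). These correlations include the female WT HDM libraries by which Anxa10 was chosen. Anxa10 and Anxa8 were lowest there, and Anxa5 and Anxa3 were highest, so nothing further is read from them.

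Cell type markers differed with HDM in female cultures as well. Summed goblet markers (Muc5ac, Muc5b, Agr2, Spdef and Tff2) were at 167 and 139.9 CPM in female WT naive libraries and at 3.70 and 4.03 CPM with HDM. In female libraries labelled KO they were at 149 and 115 CPM and then at 12.3 and 13.1 CPM, with 4 of the 4 tested genes called lower. Summed club markers went from 17360 and 13130 CPM to 4654 and 3764 CPM in female WT and from 15910 and 13170 CPM to 7877 and 7228 CPM in female cultures labelled KO. Nearly all of that sum was Cyp2f2, at 16710 and 12610 CPM in female WT naive and at 4645 and 3754 CPM in female WT HDM libraries. All 6 club genes were lower in both settings, with a median log2 fold change of -5.48 in female WT and -1.72 in those labelled KO. Summed basal markers went from 10310 and 11180 CPM to 4009 and 2002 CPM in female WT. In female libraries labelled KO they were at 10640 and 11940 CPM when naive and at 13650 and 10800 CPM with HDM. By fitted fold change 5 of the 7 basal genes were nonetheless lower with HDM there and 2 were higher. Of these, 1 was called, as lower, against 10.4% of all genes. Gastric markers, listed because Anxa10 is a gastric gene, stayed low, with Gkn1 and Gkn2 at 0 counts in every library, where 3 counts are the floor, and Tff1 and Muc6 at no more than 14 and 8. Summed fibroblast markers differed between replicates, at 26.6 and 533 CPM in female WT naive and at 48.0 and 579.8 CPM in female WT HDM libraries. Single genes of that list moved in both directions, with 5 of 7 higher and 2 lower with HDM by fitted fold change. In replicate 2 Col1a1 was at 249 CPM in naive and 47.1 CPM in HDM, and Col3a1 at 119.5 and 290.5 CPM. In female libraries labelled KO the fibroblast sums were at 106 and 92.7 CPM and then at 68.7 and 65.1 CPM. All 7 genes were lower there by fitted fold change, with 0 called. Summed squamous markers went from 635 and 924 CPM to 530 and 408 CPM in female WT. In female cultures labelled KO they went from 828 and 1030 CPM to 1513 and 1170 CPM. Of the 6 tested, 4 were lower and 2 higher in female WT, and 2 lower and 4 higher in those labelled KO. Summed smooth muscle markers were at 58.3 and 141 CPM in female WT naive and at 283 and 460.3 CPM in female WT HDM libraries. In female libraries labelled KO they were at 26.7 and 45.7 CPM and then at 134 and 92.7 CPM, with 0 of the 3 tested genes called by edgeR, 0 with an unadjusted p under 0.05 and 0 called by DESeq2. Most of that sum was Acta2, at 52.4 and 127 CPM in female WT naive and at 272 and 440.5 CPM in female WT HDM libraries. Of the 3 tested smooth muscle genes, 2 were higher and 1 was lower with HDM in female WT by fitted fold change. The lower one was Myh11, at 33 and 29 counts in naive and at 6 and 2 counts in HDM libraries. Summed ciliated markers were at 123 and 142 CPM in female naive and at 60.5 and 68.5 CPM in female HDM cultures labelled KO, with 1 of 7 genes called lower. In female WT they were at 103 and 142 CPM in naive and at 89.5 and 98.4 CPM in HDM libraries. Most of that sum was Foxj1, at 69.5 and 89.4 CPM and then at 79.1 and 86.6 CPM. By fitted fold change 6 of the 7 genes were lower with HDM in female WT and 1 was higher. The part of these marker lists in the annexin values was not tested.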

How the data were processed

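Libraries were made from mRNA with random priming and PCR. For all 16 libraries the authors deposited a table of counts, integers that were not normalized, with Ensembl identifiers. The submitters' processing notes name Trimmomatic (0.36), STAR (2.5.2b), featureCounts from Subread (1.5.2), DESeq2 and GRCm38. Strand setting, treatment of multi-mapping reads and annotation release are not given in the sources used here. The study's methods state no test for these data. No molecular identifiers are described, so a floor of 3 counts covers counting error only.

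Identifiers were matched to GENCODE M21 (49056 of 49315). The counts were filtered with filterByExpr, scaled with TMM (factors 0.967 to 1.025) and fitted with the quasi-likelihood model of edgeR (4.0.16, R 4.3.3) as 8 group means over 15993 genes. A gene was called at a two-sided Benjamini-Hochberg adjusted p under 0.05, separately in 11 comparisons. Another 3 comparisons use female WT HDM libraries and have no test. The common biological coefficient of variation was 0.142, and p-values measure the spread between 2 cultures a group. DESeq2 (1.42.0), 2 other scalings, 2 other filters, the compared libraries alone, replicate number as a block and each library left out were alternatives. Tables and plots used Python 3.11.15 with pandas 2.3.3, numpy 2.4.6, scipy 1.17.1 and matplotlib 3.10.9. On counts simulated for HDM in female cultures labelled KO, with 200 of 15993 genes changed, edgeR called 151 of these and 2 unchanged genes, and DESeq2 158 and 27.

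Named are the members, Anxa9 and Anxa13, Lman1, partners called in at least 1 tested comparison (at most 12 by adjusted p) and the 5 genes most correlated with Anxa10 among those whose mean log2 CPM is 0 or more. Fpr1, Fpr2, the partners below the filter and the marker genes were named after their values were seen. One partner is counted but not reported here by name. Members, lists and tests were chosen with earlier results of these data known.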

Additional observations from a re-analysis of the deposited data

Results flagged for a closer look

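For 4 genes the HDM response among cultures labelled KO differed between females and males by a test of the interaction itself. That was the quasi-likelihood test in edgeR, Benjamini-Hochberg adjusted, female minus male. The 4 were among 10 members and 25 tested partners, and 3.56% of all 15993 genes were called. Anxa10 had a log2 difference of -2.09, with both female HDM libraries below every female naive library and both male HDM libraries above the male naive ones. S100a10 had a log2 difference of 1.29 and Ano6 one of 0.67, each higher with HDM in both female HDM libraries. Plscr1 had a log2 difference of -0.90, lower in both female HDM libraries and higher in both male ones. Leaving out 1 of the 8 libraries in turn took the call away in 2 fits for Anxa10, 6 for S100a10, 5 for Ano6 and 4 for Plscr1. In all 4 genes the female naive libraries held Lman1 at 12.8 CPM and the female HDM libraries at 66.6 and 78.1 CPM, so HDM and the level of Lman1 cannot be told apart there.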

How the results depend on the processing

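Of the 10 annexins, the number called for HDM in female cultures labelled KO was 2, and it was 4 with no filter on low counts, with the 4 compared libraries alone and with DESeq2, 1 with at least 10 counts in every library, and 1 to 1 with a library left out. The strict filter removed Anxa10, which had 4 counts in each female WT HDM library. For sex in HDM cultures labelled KO 5 were called, and 1 to 3 with a library left out. The interaction of sex and HDM called 1, with 5 for no filter, 4 for DESeq2, 0 for the strict filter and 0 to 4 with a library left out. Where 0 were called, no filter gave 3 for HDM in male cultures labelled KO, 5 for genotype in male HDM cultures, 1 for the interaction of genotype and HDM in males and 1 for sex in naive cultures of either genotype. DESeq2 gave 3 for genotype in male HDM cultures and 1 for sex in each naive comparison. The causes of these shifts were not tested beyond the removal of Anxa10. Shares of all genes called under the alternatives are not given here.

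The median log2 fold change of the members for HDM in female WT was 0.15, 0.075 with library size only and 0.093 to 0.206 with a library left out. For genotype in female HDM cultures the median of -0.05 turned to 0.013 with library size only and ranged from -0.118 to 0.016 with a library left out, the latter without female KO HDM replicate 2. For sex in WT HDM cultures the median of -0.04 ranged from -0.159 to 0.076 with a library left out, the latter without male WT HDM replicate 2. Of the 5 genes most like Anxa10, 1 stayed among the top 5 by Spearman.

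The naive sex difference of Anxa10 had adjusted p from 0.00028 to 0.62 in WT and from 2.5e-05 to 0.69 in cultures labelled KO over its alternatives. Its HDM response in female cultures labelled KO was called in 10 of 10 alternatives, with log2 fold changes from -2.53 to -1.49. Of the 48 values of single genes that were computed under these alternatives, 0 changed sign. An average of the naive sex difference over both genotypes, chosen after the values were seen, was -1.01 and is given as a description with no test.

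Replicate numbers do not state a shared pool. Deviations of same-numbered libraries correlated across genes at -0.29 to 0.61. With replicate number as a block the calls for HDM in female cultures labelled KO were 2, for sex in HDM cultures labelled KO 5 and for the interaction 1, and no other call changed.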
